A study of Mus musculus with 6 samples.

Results

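The 10 genes described here encode NF-kB subunits (Rela, Nfkb1, Relb, Nfkb2), feedback inhibitors of the pathway (Nfkbia, Tnfaip3), the survival factor Birc3, the TNF-induced gene Tnfaip2 and the leukocyte adhesion molecules Icam1 and Vcam1. They were taken by symbol from a table of 24421 genes. All 10 were among the 10748 genes that entered the tests, whose mean reached 1 FPKM (a read level per kilobase of transcript, scaled between libraries). RNA sequencing covered 3 murine lines of pancreatic ductal adenocarcinoma, 2838c3, 6419c5 and 6499c4. For 16 hours each line was given DMSO alone as vehicle, or G-1 at 250 nM. G-1 is a small molecule that activates GPER, a membrane oestrogen receptor coupled to G proteins. A single library stands for each combination, which makes 6 libraries, 3 per treatment group and 2 per line. The labels give no genotype for the lines, and all cultures were grown in serum. Each line is a single tumour cell line, so a difference between lines cannot be told apart from a difference between single isolates.

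NF-kB factors are dimers that wait in the cytoplasm. In the classical branch the dimer of RelA with p50, the product of Nfkb1, is held by the inhibitor IkB-alpha, the product of Nfkbia. Signals from TNF, interleukin 1 or Toll-like receptors activate a kinase that marks this inhibitor for destruction. In the alternative branch the precursor encoded by Nfkb2 is processed to p52, which enters the nucleus with RelB. Nfkbia, Tnfaip3, Birc3, Icam1, Vcam1, Nfkb1, Nfkb2 and Relb are textbook targets of the pathway that they or their neighbours control, and the first 3 feed back on it. None of the values below measures protein, cleavage or nuclear entry.

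Promoter sequences are shown first, for the members in which the letters bound by NF-kB were found. RefSeq promoters of build GRCm38.p6 were at hand for 7 of the 10 genes (not for Nfkb1, Relb and Vcam1), in 10 windows of 250 bases upstream of a start site. The kB consensus, the motif bound by NF-kB dimers, was taken as GGGRNNYYCC (R is A or G, Y is C or T, N is any base). It was searched on both strands and was found for 4 of the 7 genes, Nfkb2, Nfkbia, Tnfaip3 and Tnfaip2, in 6 of the 10 windows. Nfkb2 alone gave 3 of these 6, from 3 start sites, and its windows for starts 2 and 3 overlap. The windows are therefore not separate genes. Of all 32851 promoter windows of this length, 7.25% held the consensus. The looser motif GGGNNNNNCC, which contains every kB consensus match, was found for 7 of the 7 genes and in 45.8% of all windows. For Nfkbia the whole window (chr12:55492648-55492897, minus strand) is given, 5′ to 3′, with the consensus match, 29 to 20 bases before the start, in capitals.
Nfkbia upstream window: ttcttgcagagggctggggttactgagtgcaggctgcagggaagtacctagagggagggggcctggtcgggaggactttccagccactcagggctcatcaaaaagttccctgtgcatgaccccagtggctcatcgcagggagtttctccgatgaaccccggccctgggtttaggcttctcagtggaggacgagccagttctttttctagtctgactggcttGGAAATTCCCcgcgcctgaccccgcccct
For the other 3 genes the windows overlap annotated exons, and stretches of 30 bases around a match are given, again with the match in capitals. They lie at chr19:46304688-46304717 and chr19:46304707-46304736 (Nfkb2, plus strand), chr10:19015411-19015440 (Tnfaip3, minus strand) and chr12:111442627-111442656 (Tnfaip2, plus strand). In the first Nfkb2 stretch the capitals join 3 overlapping matches.
Nfkb2 distal: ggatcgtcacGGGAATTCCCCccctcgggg
Nfkb2 proximal: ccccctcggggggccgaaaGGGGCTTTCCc
Tnfaip3: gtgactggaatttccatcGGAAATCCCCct
Tnfaip2: gactattttaGGAGGGCCCCtccagggtcg
A match is a string of letters and not a measured binding site, and the windows of Rela, Birc3 and Icam1 held none of the consensus within these bases. Sites that depart from the letters of both motifs were not searched, so a window without a match can still hold a site. The genes with and without a match are described side by side below, and no test was made between them.

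Reads in genes numbered 5455990 to 8890821 per library, and a count of 0 allows up to 3 reads, or 0.337 to 0.55 RPM (counting error only). Keratins of ductal epithelium were high in every library, with Krt8, Krt18, Krt19 and Krt7 at 293 to 2648 FPKM and Cdh1 at 169 to 352 FPKM. Other ductal markers were low (Epcam 0.284 to 5.81 FPKM, Sox9 0.602 to 2.73, Cldn4 at most 0.928). Since Icam1 and Vcam1 are also made by endothelium and leukocytes, markers of those cells were read too. The 8 endothelial markers summed to 0.129 to 2.43 FPKM per library, lowest in 2838c3, with Emcn at 0 in all libraries. The 10 leukocyte and macrophage markers summed to 41.2 to 67.4 FPKM, of which Cd14 alone gave 37.7 to 65.2, while Adgre1 and Itgal were at 0 in all libraries and Ptprc reached at most 0.154. The 7 lymphocyte markers reached at most 0.264 FPKM in sum and the 8 fibroblast markers 1.33.

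All 4 subunit genes were expressed in all 3 lines, and 3 of them were highest in 2838c3. Rela (chr19:5637483-5648130; gene positions follow GENCODE on GRCm38), which encodes the main activating subunit, stood at 65.4 FPKM with vehicle and 75.1 with G-1 in 2838c3. The same pair of values was 39.3 and 41.8 in 6419c5, with 41.4 and 38.9 in 6499c4. Both 2838c3 libraries lay above the other 4, which overlapped. Between 6419c5 and 2838c3 Rela fell by 0.78 on the scale of log2(FPKM + 1) (SE 0.09, limma, adjusted p = 0.000382), and between 6499c4 and 2838c3 by 0.79 (SE 0.09, adjusted p = 0.000271). Between 6499c4 and 6419c5 the log2 difference was -0.01, with a 95% interval from -0.22 to 0.19. Here and below, a lower level in a bulk culture cannot tell fewer expressing cells from less RNA per cell.

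Nfkb1 (chr3:135584655-135691547), the source of p105 and p50, read 40.5 and 36.3 FPKM in 2838c3 (vehicle, then G-1), 35.3 and 31.6 in 6419c5, with 22.3 and 20.6 in 6499c4. The libraries of 6499c4 lay well below the other 4, while those of 2838c3 and 6419c5 came within about 1 FPKM of each other, and the log2 difference between these lines, -0.19 (SE 0.08), did not pass (limma, adjusted p = 0.074; 0.0411 in limma-voom on recovered reads). Nfkb1 fell in 6499c4 by 0.81 against 2838c3 and by 0.62 against 6419c5 (SE 0.08 each, limma, adjusted p = 0.000136 and 0.000695). Nfkb2 (chr19:46304320-46312385), the source of p100 and p52, read 54.0 and 58.2 FPKM in 2838c3, 34.2 and 29.5 in 6419c5, with 30.7 and 29.8 in 6499c4. It was the mirror case, with 2838c3 above the other lines and those overlapping. The falls against 2838c3 were 0.80 in 6419c5 and 0.87 in 6499c4 (SE 0.09 each, limma, adjusted p = 0.000436 and 0.000237). Exons of Nfkb2 overlap the antisense gene Psd and the antisense non-coding model AC114539.1. Psd had only 2 to 12 reads per library against 528 to 1636 for Nfkb2, and AC114539.1 was not read.

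Relb (chr7:19606217-19629438), the partner of p52, had the smallest range between line means of the 10 genes. It read 10.3 FPKM in both 2838c3 libraries, 12.4 and 10.9 in 6419c5, with 7.74 and 10.03 in 6499c4. It was the only member of the 10 whose highest line was not 2838c3. None of its differences between lines passed, with log2 differences of 0.16 for 6419c5 and -0.20 for 6499c4 against 2838c3 (SE 0.14 each, limma, adjusted p = 0.355 and 0.252) and -0.37 between 6499c4 and 6419c5 (adjusted p = 0.067). The last of these passed in limma-voom on recovered reads (adjusted p = 0.0322) and without the G-1 library of 6499c4 (adjusted p = 0.0152). Relb rested on 131 to 195 reads per library. Its range of line means, 0.37 on the log2 scale, exceeded that of 27.6% of all genes tested.

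**Figure D1:**
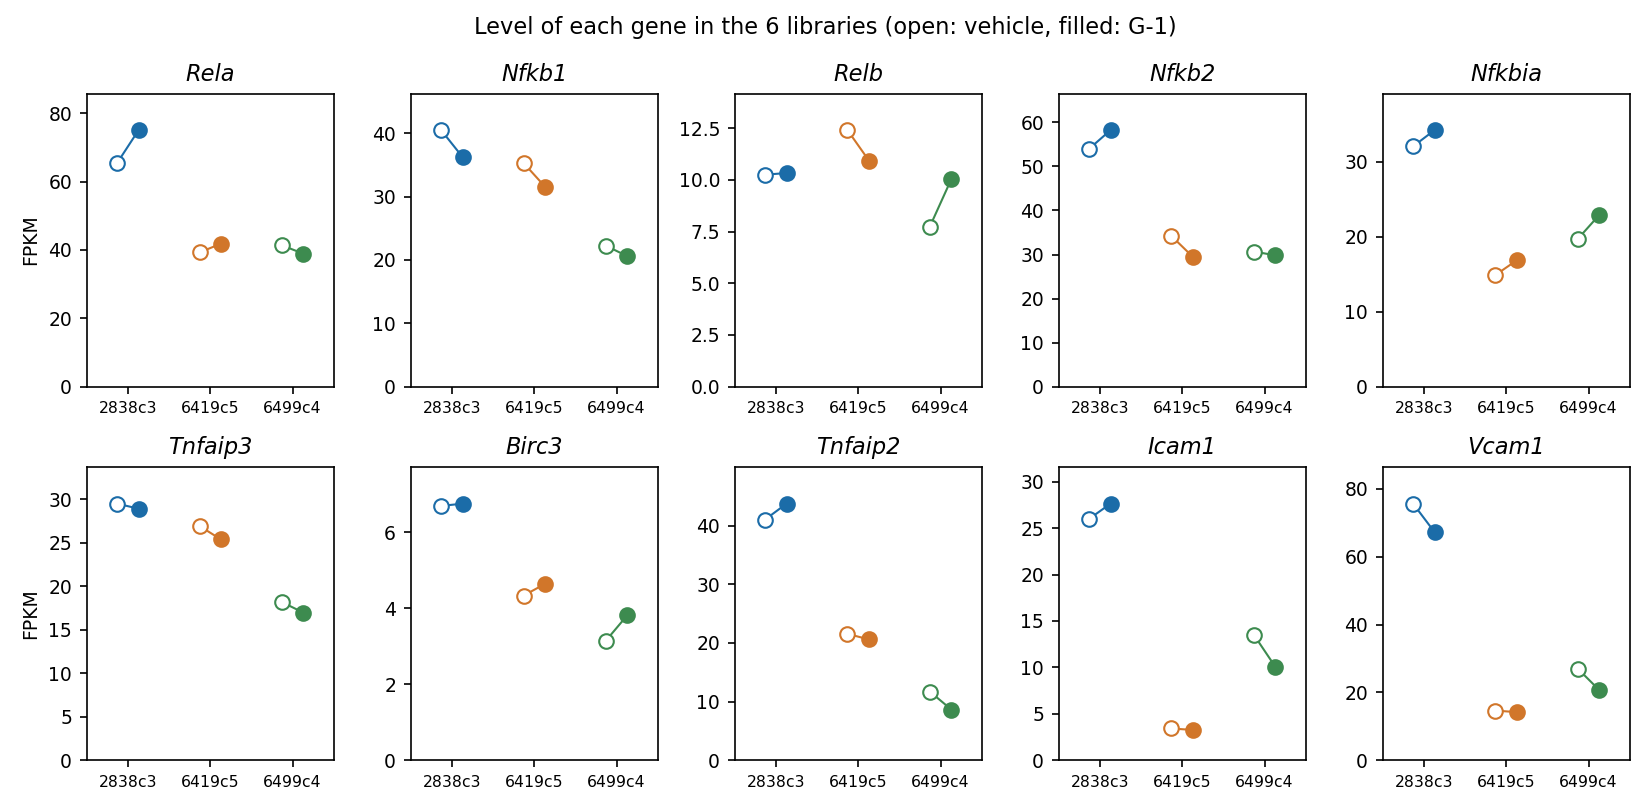
FPKM (y axis, from 0) of each of the 10 genes in the 6 libraries, by line (x axis), open circles for vehicle and filled circles for G-1, joined within a line. The lines stand further apart than the treatments for most genes: Icam1 reads 26.0 and 27.6 FPKM in 2838c3 against 3.42 and 3.26 in 6419c5.

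The makeup of the subunit pool was described by shares and ratios. Because FPKM is per length, the subunits can be set side by side within a library. Rela made up 31.6 to 41.0% of the summed FPKM of the subunit genes, Nfkb2 25.1 to 31.8%, Nfkb1 19.8 to 28.4%, Relb 5.65 to 9.98%, and Rel, which encodes the lymphoid subunit c-Rel and was counted here as the other subunit, 1.69 to 3.20%. Rel itself lay at 3.08 to 3.41 FPKM (48 to 73 reads) in all libraries. The ratio of Nfkb2 to Nfkb1, precursor of the alternative against precursor of the classical branch, was 0.968 (vehicle, counting interval 0.882 to 1.06) and 0.933 (G-1, 0.832 to 1.05) in 6419c5. In 2838c3 it was 1.33 and 1.61, and in 6499c4 1.38 and 1.45, so that both 6419c5 libraries lay below the other 4. The ratio of Relb to Rela was 0.157 and 0.138 in 2838c3, 0.316 and 0.261 in 6419c5, with 0.187 and 0.258 in 6499c4. Here 2838c3 was lowest in both treatments.

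**Figure D2:**
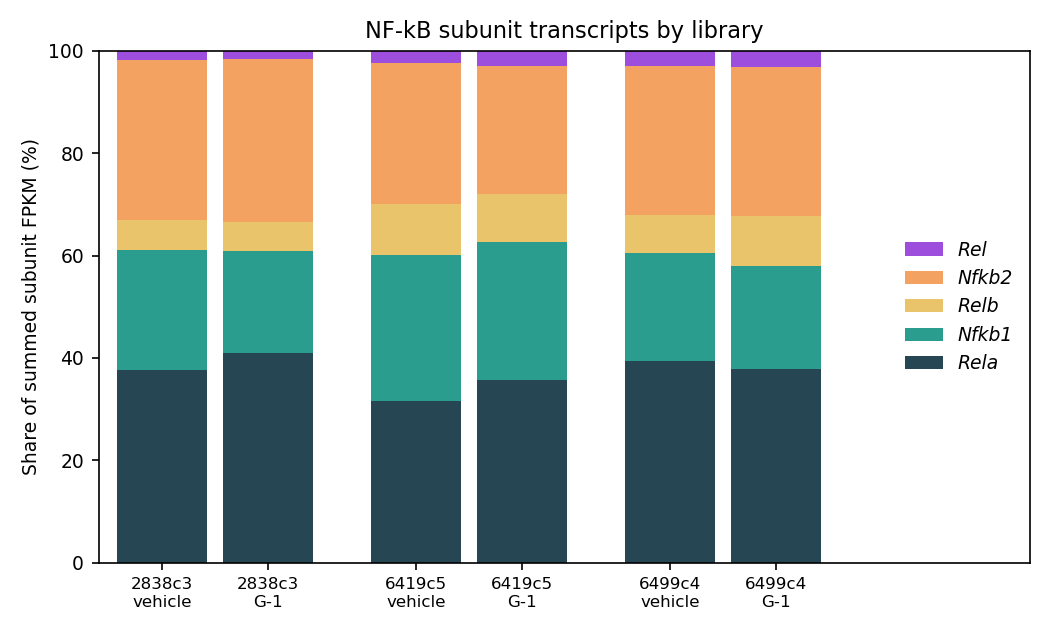
Share of the summed FPKM of the 5 subunit genes (y axis, %) in each of the 6 libraries (x axis), stacked by gene. Rela holds 31.6 to 41.0% and Rel at most 3.20% in each library, and the Nfkb1 share is highest in the 6419c5 libraries (26.9 and 28.4%).

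Of the feedback inhibitors, Nfkbia separated all 3 lines and Tnfaip3 set 6499c4 apart. Nfkbia (chr12:55489410-55492647), whose product IkB-alpha traps RelA dimers, read 32.0 and 34.2 FPKM in 2838c3, 14.9 and 16.9 in 6419c5, with 19.7 and 22.9 in 6499c4, with no overlap between lines. It fell by 1.02 in 6419c5 and by 0.62 in 6499c4 against 2838c3 on the log2 scale (SE 0.09 each, limma, adjusted p = 0.000109 and 0.000749). The difference between 6499c4 and 6419c5, 0.40 (SE 0.09, limma, adjusted p = 0.00782), did not pass without the vehicle or without the G-1 library of 6419c5 (adjusted p = 0.0546 and 0.0544). Relative to its main client, Nfkbia stood at 0.379 to 0.589 of the Rela level in FPKM across the 6 libraries.

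Tnfaip3 (chr10:19000910-19015657) encodes A20, a ubiquitin-editing enzyme that shuts off signalling from the TNF receptor. It read 29.5 and 28.9 FPKM in 2838c3, 26.9 and 25.4 in 6419c5, with 18.2 and 17.0 in 6499c4, and the lines did not overlap. In 6499c4 it fell by 0.70 against 2838c3 and by 0.55 against 6419c5 (SE 0.08 each, limma, adjusted p = 0.000341 and 0.00161). The log2 difference between 6419c5 and 2838c3, -0.15, did not pass (95% interval -0.35 to 0.04, limma, adjusted p = 0.156). Nfkbia and Tnfaip3 thus had their lowest values in different lines, 6419c5 and 6499c4.

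Birc3 and Tnfaip2 shared one order of line means, 2838c3 above 6419c5 above 6499c4. The means of Rela, Nfkb1, Nfkb2 and Tnfaip3 had the same order. Birc3 (chr9:7848699-7873186) encodes cIAP2, a ubiquitin ligase that keeps cells alive downstream of TNF receptors, and had the lowest mean of the 10 genes. It read 6.69 and 6.75 FPKM in 2838c3, 4.33 and 4.64 in 6419c5, with 3.15 and 3.82 in 6499c4, from 71 to 162 reads per library. The ranges of the lines did not overlap. It fell by 0.79 in 6499c4 against 2838c3 (SE 0.13, limma, adjusted p = 0.00191). The fall of 0.49 in 6419c5 against 2838c3 (SE 0.13, limma, adjusted p = 0.0174) did not pass when any 1 of the 4 libraries of these lines was left out: 2838c3 vehicle (adjusted p = 0.133), 2838c3 G-1 (0.0586), 6419c5 vehicle (0.0877) or 6419c5 G-1 (0.102). The difference of -0.30 between 6499c4 and 6419c5 did not pass (limma, adjusted p = 0.108).

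Tnfaip2 (chr12:111442469-111455018), a cytoplasmic protein first found as a TNF-induced transcript of endothelial cells, had the steepest version of this order. It read 41.0 and 43.7 FPKM in 2838c3, 21.5 and 20.6 in 6419c5, with 11.7 and 8.63 in 6499c4, again with no overlap. The ratio of mean FPKM of 2838c3 to that of 6499c4 was 4.17. It fell by 0.98 in 6419c5 and by 1.97 in 6499c4 against 2838c3, and by 1.00 in 6499c4 against 6419c5 (SE 0.12 each, limma, adjusted p = 0.000639, 2.12e-05 and 0.000667). The promoter stretch printed above for Tnfaip2 holds 1 consensus match, as does the window of Nfkbia, whose order of lines was different.

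The adhesion genes differed most. Icam1 (chr9:21015985-21028817), the ligand of the leukocyte integrin LFA-1, read 26.0 and 27.6 FPKM in 2838c3 (565 and 599 reads), 3.42 and 3.26 in 6419c5 (62 and 45 reads), with 13.5 and 10.1 in 6499c4 (314 and 205 reads). The 3 lines were fully separated, and mean FPKM in 2838c3 was 8.04 times that in 6419c5. Icam1 fell by 2.68 in 6419c5 and by 1.13 in 6499c4 against 2838c3, and rose by 1.55 in 6499c4 against 6419c5 (SE 0.14 each, limma, adjusted p = 1.16e-05, 0.000371 and 0.000139). Its range of line means exceeded that of 97.5% of all genes tested.

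Vcam1 (chr3:116109949-116129688), the ligand of the integrin VLA-4, followed the same order. It read 75.7 and 67.3 FPKM in 2838c3, 14.6 and 14.2 in 6419c5, with 27.0 and 20.7 in 6499c4. In 2838c3 it was at the level of Rela, and its mean was 4.97 times that of 6419c5. It fell by 2.23 in 6419c5 and by 1.56 in 6499c4 against 2838c3, and rose by 0.68 in 6499c4 against 6419c5 (SE 0.10 each, limma, adjusted p = 6.32e-06, 2.12e-05 and 0.00137). The summed endothelial markers went the other way between these lines, 0.129 to 0.239 FPKM in 2838c3 against 1.63 to 2.43 in 6419c5, and were under 2.5 FPKM in all libraries. Most of the sum in 6419c5 came from Cdh5 (1.58 and 1.01 FPKM, 45 and 22 reads), which was at 0 in 2838c3. Kdr alone was higher in 2838c3 (0.214 and 0.129 FPKM) and was at 0 in 6419c5. A part of endothelial cells in the Vcam1 values was not tested. Vcam1, Icam1 and Tnfaip2, like Nfkb2, each have an exon that overlaps an antisense gene model, and the sources used here do not give whether strand was used in counting.

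Counted over the 10 genes, 7 were lower and 0 higher in 6419c5 than in 2838c3 at an adjusted p under 0.05, where 25.3% of all genes tested were lower and 26.2% higher. In 6499c4 against 2838c3, 9 were lower and 0 higher (all genes: 28.9% lower and 26.6% higher). Between 6499c4 and 6419c5, 3 were higher (Icam1, Vcam1, Nfkbia) and 3 lower (Tnfaip2, Nfkb1, Tnfaip3), beside 21.3% higher and 23.7% lower among all genes. The median log2 difference of the 10 genes was -0.79, -0.80 and -0.18 in these comparisons, against 0.00, -0.01 and 0.01 over all genes tested. The comparisons share libraries, so the first pair of counts both rest on the same 2838c3 libraries. The 2838c3 line was the highest for 9 of the 10 genes and for 36.2% of all genes tested.

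**Figure D3:**
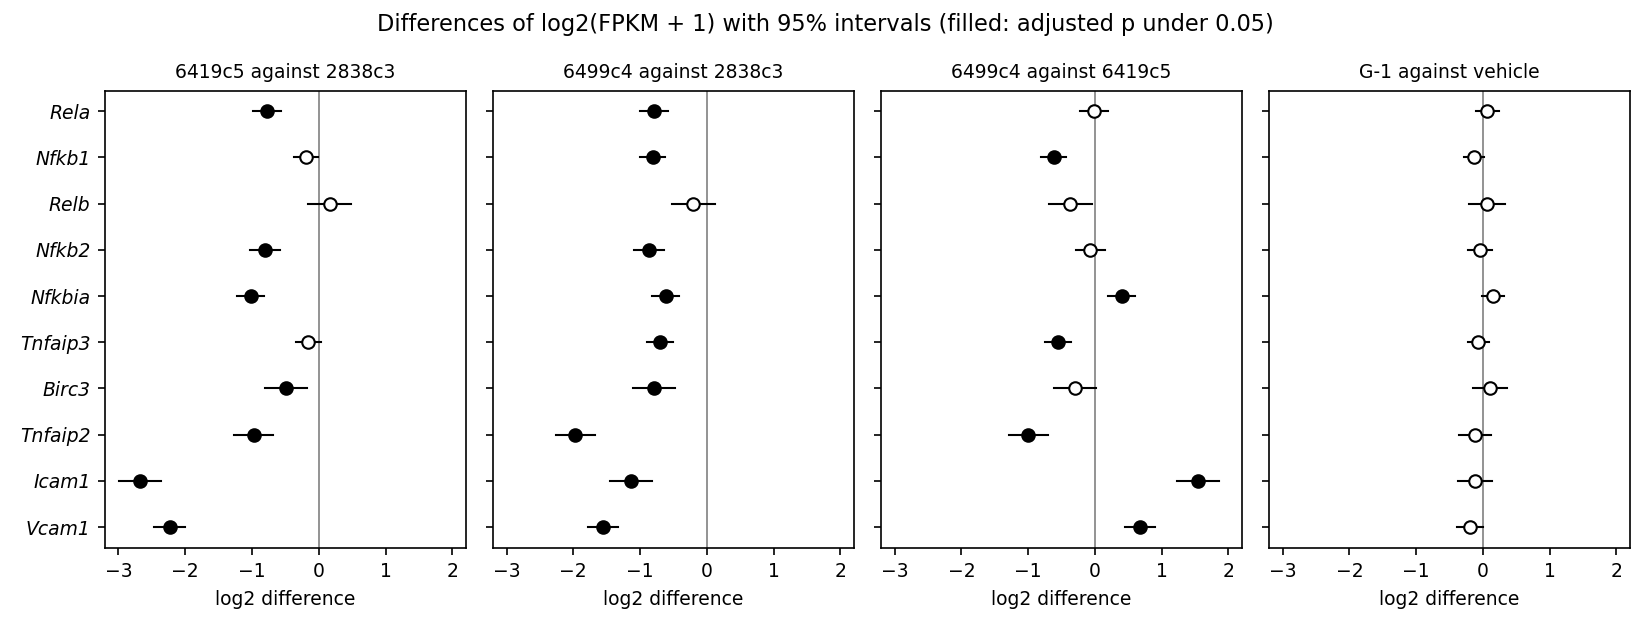
Log2 difference (x axis, log2(FPKM + 1)) of each gene (rows) in 3 comparisons between lines and for G-1 against vehicle, with 95% intervals of the limma fit; filled circles have an adjusted p under 0.05. The filled circles number 7, 9, 6 and 0 from left to right, and Icam1 and Vcam1 lie furthest from 0 in the first panel.

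With G-1, no member differed from vehicle past the threshold: 0 of 10 had an adjusted p under 0.05 in limma with the line as block, where 0.0279% of all genes tested (3 genes) did. The members' adjusted p ran from 0.486 to 0.887. At an unadjusted p under 0.05 there was 1 of 10, Vcam1, beside 10.1% of all genes. In limma-voom on recovered reads 0 of 10 passed at an adjusted p under 0.05 (1.61% of all genes), and 2, Vcam1 and Nfkb1, had an unadjusted p under 0.05 (14% of all genes). The median log2 difference of the 10 genes was -0.06, against -0.01 over all genes.

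The intervals of the fit bound the mean difference over the 3 lines. For Nfkb1 the log2 difference was -0.14 (SE 0.06, 95% interval -0.29 to 0.01, limma, adjusted p = 0.516), and the gene read lower with G-1 in each of the 3 lines. For Nfkbia it was 0.16 (SE 0.07, -0.01 to 0.32, limma, adjusted p = 0.513), and the gene read higher in each line. The interval of Rela ran from -0.10 to 0.24, that of Nfkb2 from -0.23 to 0.13, and that of Tnfaip3 from -0.23 to 0.09. The widest were those of Relb (-0.21 to 0.33) and Icam1 (-0.38 to 0.14). In all, 2 of 10 genes read higher in every line (Nfkbia, Birc3; 15.4% of all genes) and 3 read lower in every line (Nfkb1, Tnfaip3, Vcam1; 17.5% of all genes).

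Vcam1 had the largest mean difference, -0.19 on the log2 scale (SE 0.08, limma, unadjusted p = 0.0464, adjusted p = 0.486). Within a line the 2 libraries can be compared only for counting error, which does not include the spread between cultures. The ratio of Vcam1 reads, G-1 to vehicle on the authors' scale, was 0.889 in 2838c3 (exact 95% counting interval 0.836 to 0.946), 0.968 in 6419c5 (0.822 to 1.14) and 0.766 in 6499c4 (0.687 to 0.854). The interval lay below 1 in 2838c3 and 6499c4. Icam1 gave 0.746 (0.622 to 0.892) and Tnfaip2 0.738 (0.627 to 0.869) in 6499c4, while in 2838c3 both ratios were above 1 with intervals that included 1 (Icam1 1.06, Tnfaip2 1.07). The lower adhesion values with G-1 in 6499c4 therefore describe 1 pair of libraries. Beside them, the summed leukocyte markers read 50.01 FPKM with vehicle and 41.2 with G-1 in 6499c4, 66.1 and 52.0 in 6419c5, and 66.7 and 67.4 in 2838c3. The lower sums came from Cd14 (49.2 and 37.7 FPKM in 6499c4, 63.5 and 49.99 in 6419c5), while Cd68 read 0.788 and 3.20 FPKM and Ptprc 0 and 7 reads in 6499c4. Their part in the result was not tested.

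Over the 30 pairs of values (10 genes in 3 lines), 20 counting intervals included 1, 3 lay above and 7 below. Of all such pairs of the genes tested, 12.8% had an interval above 1 and 15% below. Those above were Rela in 2838c3 (1.15, 1.07 to 1.23), Nfkb2 in 2838c3 (1.08, 1.01 to 1.16) and Relb in 6499c4 (1.30, 1.04 to 1.62). Besides the adhesion genes and Tnfaip2, those below were Nfkb1 in 2838c3 (0.895, 0.829 to 0.966) and 6419c5 (0.894, 0.812 to 0.985) and Nfkb2 in 6419c5 (0.862, 0.771 to 0.963). Since each line had 1 library per treatment, whether the lines differ in their response could not be tested. The ratio of Nfkb1 to Rela read 0.619 with vehicle and 0.483 with G-1 for 2838c3, then 0.899 and 0.755 for 6419c5 and 0.538 and 0.529 for 6499c4. Its mean log2 change was -0.21 (SD 0.17, n = 3 lines), and an exact permutation test (two-sided, flipping the sign of each line) gave p = 0.25, the smallest p that 3 lines allow. The same exact permutation test gave p = 0.5 for Nfkb2 to Nfkb1, 0.75 for Nfkbia to Rela and 1 for Relb to Rela, and adjusted over these 4 ratios each p was 1.

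**Figure D4:**
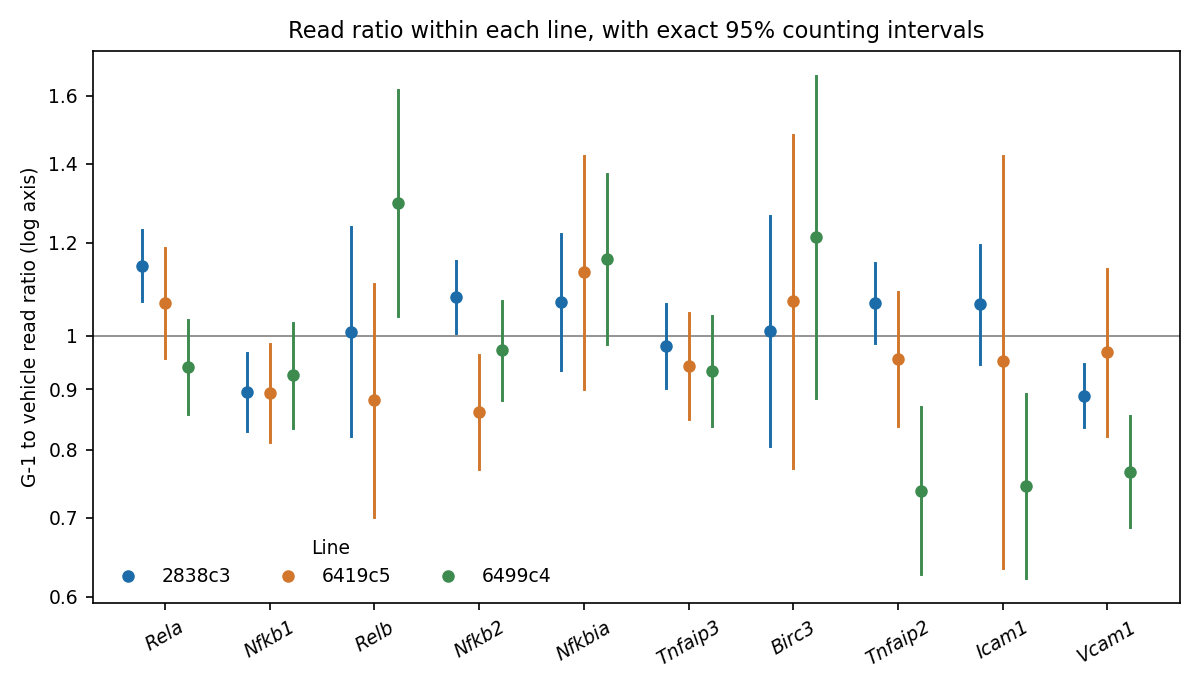
Ratio of reads with G-1 to reads with vehicle (y axis, log scale, authors' library scale) for each gene (x axis) and line (colour), with exact 95% counting intervals. Of the 30 intervals 20 include 1; Vcam1, Icam1 and Tnfaip2 in 6499c4 read 0.766, 0.746 and 0.738.

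The rest of the pathway was read from lists of 105 further genes, of which 79 were tested. For G-1, 0 of 79 passed in limma (10 had an unadjusted p under 0.05, beside 10.1% of all genes, and the smallest adjusted p was 0.279), and 4 passed in limma-voom, beside 1.61% of all genes. These 4 were Tnfrsf12a, the TWEAK receptor (log2 difference 0.32, adjusted p = 0.000762), the survival gene Ier3 (0.28, adjusted p = 0.0175), the macrophage growth factor Csf1 (-0.44, adjusted p = 0.00875) and the selectin Selp (-0.35, adjusted p = 0.0402). Between lines, 21 rose and 23 fell in 6419c5 against 2838c3 (all genes tested: 26.2% higher and 25.3% lower). In 6499c4 against 2838c3, 17 rose and 36 fell (all genes: 26.6% and 28.9%). In 6499c4 against 6419c5, 11 rose and 32 fell (all genes: 21.3% and 23.7%). Without the vehicle or the G-1 library of 6419c5 the total of 44 in the first of these went to 27 and 29, and the total of 43 in the last to 24 in both cases. The median log2 difference of the 79 genes was 0.00, -0.30 and -0.22. The all-gene shares of each comparison also stand beside the counts of the single lists below. In each list a gene could enter the tests through lines where it was high, since the filter took the mean over all libraries.

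Upstream of the subunits, several receptor genes differed between lines. Il1r1, the signalling receptor of interleukin 1, read 14.7 and 14.1 FPKM in 2838c3 (vehicle, then G-1), 4.67 and 5.25 in 6419c5, and was listed at 0 in both 6499c4 libraries. Its co-receptor Il1rap was listed at 0 and 0.0138 FPKM in 2838c3, at 2.82 and 2.45 in 6419c5 and at 0.965 and 1.04 in 6499c4. The receptor and its co-receptor thus had their highest values in different lines. Of the 9 receptors tested, 5 rose and 1 fell in 6419c5 against 2838c3, 4 rose and 2 fell in 6499c4 against 2838c3, and 0 rose and 4 fell in 6499c4 against 6419c5, among them the TNF receptor gene Tnfrsf1b (log2 difference -1.49, SE 0.11, limma, adjusted p = 5.30e-05). Of the 20 adaptors and ubiquitin ligases, 12 to 14 did not pass in any one comparison. The scaffold gene Card10 fell by 1.28 in 6419c5 and by 1.21 in 6499c4 against 2838c3 (SE 0.11, limma, adjusted p = 0.000114 and 9.85e-05), and the kinase adaptor gene Irak1 rose by 0.87 in 6499c4 against 2838c3 (SE 0.09, adjusted p = 0.00017).

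Among the 7 kinases tested, Ikbkb, the IkB kinase of the classical branch, read 28.1 and 26.4 FPKM in 2838c3, 24.5 and 21.4 in 6419c5, with 18.9 and 17.6 in 6499c4, the order seen for Nfkb1 and Tnfaip3. It fell by 0.56 in 6499c4 against 2838c3 (SE 0.09, limma, adjusted p = 0.00121). Map3k14, which encodes the alternative-branch kinase NIK, read between 1.80 and 3.45 FPKM. Of the 9 ligand genes only Tnfsf12, which encodes TWEAK, reached a mean of 1 FPKM, and Tnf itself was listed at 0 to 0.556 FPKM. Of the 14 other inhibitors tested, 6 rose and 7 fell in 6499c4 against 2838c3. The A20-binding gene Tnip3 fell by 2.30 in this comparison (SE 0.15, limma, adjusted p = 2.17e-05), from 7.84 and 7.18 FPKM to 0.666 and 0.794.

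In the list of other targets, most genes tested fell in 6499c4. There, 1 rose and 16 fell of 20 against 2838c3 (median log2 difference -1.03), where 28.9% of all genes tested fell. Against 6419c5, 1 rose and 14 fell (median -1.03), beside 23.7% lower among all genes. Because the filter took the mean over all 6 libraries, some genes were tested only through lines where they were high. Cxcl2 read 2.70 and 3.14 FPKM in 2838c3 against 0.504 and 0.691 in 6499c4. Lcn2 read 9.52 and 5.60 in 6419c5 and was listed at 0 in both 6499c4 libraries. For such genes the lower value in 6499c4 is partly set by the filter, which also applied to all genes tested. Ptgs2, which encodes the prostaglandin-forming cyclooxygenase COX-2, read 145 and 136 FPKM in 2838c3, 326 and 381 in 6419c5, with 10.8 and 10.6 in 6499c4. Plau, the urokinase gene, read 43.4 and 37.7, 13.4 and 12.4, and 6.06 and 2.93 FPKM in the same order, and Csf1 25.3 and 19.5, 16.2 and 11.7, and 3.95 and 2.59. The neutrophil attractant Cxcl1 was read in 6419c5 (8.998 and 9.48 FPKM). It was listed at 0.123 and 0 FPKM in 2838c3 and at 0 in both 6499c4 libraries. Its difference between 6499c4 and 2838c3 did not pass (log2 difference -0.08, limma, adjusted p = 0.713). In 6419c5 against 2838c3, 8 of the 20 rose and 8 fell, and Ptgs2 and Cxcl1 were highest in the line where Icam1 and Vcam1 were lowest. Of the 7 other adhesion molecules tested, 3 rose and 2 fell in 6419c5 against 2838c3. Jam2, a junctional molecule, rose by 2.71 (SE 0.11, limma, adjusted p = 5.63e-06), Alcam by 1.20 (SE 0.10, adjusted p = 0.000118), and Selp fell by 1.06 (SE 0.10, adjusted p = 0.000136).

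**Figure D5:**
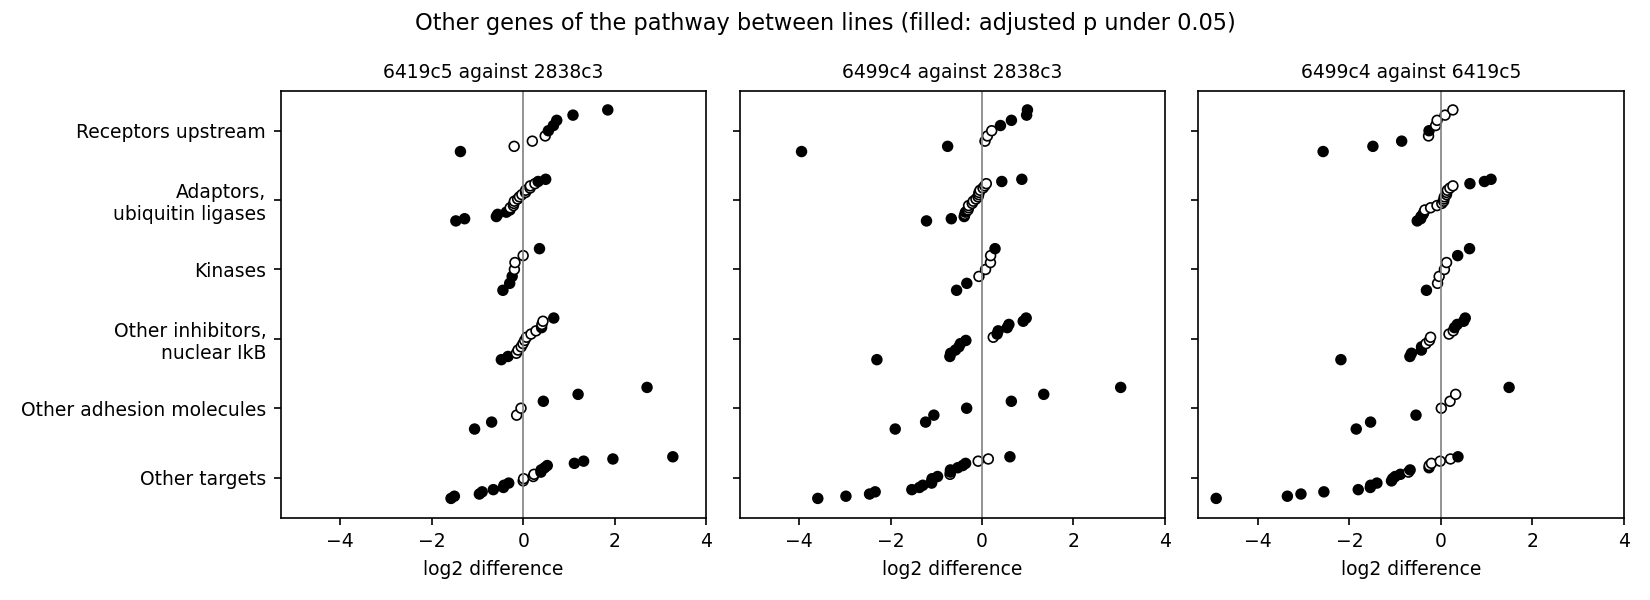
Log2 difference (x axis, log2(FPKM + 1)) of the other tested genes of the pathway in 3 comparisons between lines, 1 circle per gene, grouped by role (rows) and offset within a row for legibility; filled circles have an adjusted p under 0.05 in limma. In the row of other targets, 16 of 20 fall in 6499c4 against 2838c3 (28.9% of all genes tested). Some of these 20 passed the filter on mean FPKM only through lines where they were high. In 6419c5 against 2838c3, 8 rise and 8 fall (26.2% and 25.3% of all genes).

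Genes whose log2 pattern over the 6 libraries lay nearest to a member, by the root mean square distance of log2 values centred on their mean among 10205 genes, were sought for the adhesion genes and Birc3. Nearest to Vcam1 were Phf19 (distance 0.128), Fscn1 and Tspan33 (0.174 each). Nearest to Icam1 were Vash2 (0.146), Serpinh1 (0.153) and Smo (0.267). Nearest to Birc3 were Gmpr2 (0.0216), Creb5 (0.0401) and Fam189b (0.0441). Fscn1, which encodes the actin-bundling protein fascin, read 116 and 102 FPKM in 2838c3, 22.2 and 16.3 in 6419c5, with 35.7 and 34.8 in 6499c4. None of these 9 genes was on a list of the pathway, and 6 libraries from 3 lines leave many genes with a like pattern.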

How the data were processed

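Per the labels' protocols, RNA from DMSO- and G-1-treated cultures was purified on columns and made into NEBNext Ultra libraries. The deposited table holds FPKM, as the authors named it. STAR and DESeq2 appear in the submitters' processing notes without a stated role, and the sources used here do not give the build, annotation or strand setting. FPKM values were whole multiples of a step per gene and library, so reads were recovered (15712 of 15712 genes above 0, within 0.01 reads). The scale behind the FPKM had the ratios of median-of-ratios size factors and deviated from read totals by up to 5.85%. For the 10 genes, the length implied by the step was 0.949 to 1.05 times that of a RefSeq-linked transcript.

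Log2(FPKM + 1) was fitted for 10748 genes whose mean reached 1 FPKM in limma 3.58.1 (R 4.3.3) with a variance trend (2 residual and 5.35 prior degrees of freedom). G-1 was tested with the line as block, and pairs of lines with treatment as covariate. Adjusted p-values follow Benjamini and Hochberg over all genes, two-sided, threshold 0.05. The line pairs the libraries by design, and both libraries of a line correlated after centring within treatment (r = 0.906, 0.871 and 0.882 for 2838c3, 6419c5 and 6499c4, across genes). The labels do not say whether libraries come from separate cultures, so p-values measure only the spread between these libraries. Alternatives were no block, another pseudocount (0.1), no filter, a filter at 5 FPKM, no variance trend, quantile normalization, limma-voom on recovered reads (mean of at least 10) and leaving out each line or library. Read ratios carry exact binomial 95% intervals. Fits and read recovery were tested on simulated data. Gene positions used for exon overlaps follow GENCODE (GRCm38), and promoters RefSeq (GRCm38.p6).

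Named genes were the 10 members and, per list and comparison, up to 3 others: those past the threshold with the largest differences or, for G-1, those with 1 sign in all lines. Tnf was added after its values were seen. The members and lists were chosen with earlier results of these data known.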

Additional observations from a re-analysis of the deposited data

Results flagged for a closer look

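Rela, Relb, Nfkb2, Tnfaip2 and Icam1 moved in opposite directions with G-1 in different lines. With 1 pair of libraries per line, the difference between lines was not tested. The gap between the highest and the lowest line, in log2(FPKM + 1) of G-1 minus vehicle, was 0.28 for Rela, 0.50 for Relb, 0.32 for Nfkb2, 0.49 for Tnfaip2 and 0.48 for Icam1. Nfkb2 was the only one with counting intervals of the read ratio on both sides of 1, above in 2838c3 (1.08) and below in 6419c5 (0.862). For Rela the interval lay above 1 in 2838c3 (1.15), for Relb above 1 in 6499c4 (1.30), and for Tnfaip2 and Icam1 below 1 in 6499c4 (0.738 and 0.746), and their other intervals included 1.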

How the results depend on the processing

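The number of the 10 genes past the threshold for G-1 was 0 under every alternative run, including the fit without the replicate block (0 of 10). Between lines it stayed within 1.5 times the reported count. Over all genes, G-1 gave 3 calls, and 0 without the replicate block, with no filter or with no variance trend, 1 with a pseudocount of 0.1, 6 with a filter at 5 FPKM and 181 in limma-voom. Leaving out 1 line gave 0 to 28 calls (8 without 2838c3, 0 without 6419c5, 28 without 6499c4). Of the other pathway genes, 4 passed for G-1 in limma-voom against 0. Leaving out 1 library gave 27 to 47 calls among them (44 reported) and 3557 to 5986 among all genes (5533) for 6419c5 against 2838c3, and 24 to 44 (43) and 2664 to 4832 (4836) for 6499c4 against 6419c5; a line left with 1 library was assumed to vary like the others. Among the 10 genes, signs changed only in differences that did not pass. Without 1 line, the G-1 differences ran from -0.079 to 0.17 (Relb), -0.12 to 0.034 (Nfkb2), -0.23 to 0.014 (Tnfaip2) and -0.22 to 0.016 (Icam1). Without 1 library, Relb against 2838c3 ran from -0.0064 to 0.33 for 6419c5, and for 6499c4 from -0.41 to 0.0059. Between 6499c4 and 6419c5, Rela ran from -0.13 to 0.10 (0.059 with quantile normalization) and Nfkb2 from -0.19 to 0.054. Birc3 fell under the filter at 5 FPKM. Low read counts limit the precision for Birc3 (71 to 162 reads), Relb (131 to 195), Icam1 in 6419c5 (45 and 62) and Nfkbia in 6419c5 (145 and 168). The cause of these changes was not tested.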
